A study of Pan troglodytes with 38 samples.

Results

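The mitochondrial genome carries 7 genes for subunits of respiratory complex I, and their RNA was followed here across the hearts of 38 chimpanzees. These genes, MT-ND1, MT-ND2, MT-ND3, MT-ND4, MT-ND4L, MT-ND5 and MT-ND6, were found by the symbols of their Ensembl identifiers, which gave 7 of the 31373 rows of the gene count table. None of them was in the table of orthologous exons or in the normalized matrix, so all values below come from gene counts. The study compared how strongly gene expression varies within humans and within chimpanzees and mapped regulatory variants in the chimpanzees. Each sample was a post-mortem heart of 1 captive animal, the labels name no treatment, and they put all 38 in a single group. The study states that some of its chimpanzees were laboratory animals that had received HBV or HCV, which are hepatitis viruses. Virus exposure was not used in the comparisons here. The animals were 22 females and 16 males, with ages at death from 10 to 57 years in the 34 animals for which the study's sample table gives one, and the methods state that some were close relatives. That table also gives the RNA integrity number (RIN), a score that is lower for degraded RNA, and the year of RNA extraction. RNA of 17 animals was extracted in 2016, in 4 batches, and RNA of 21 animals in 2018, in a single batch. The table marks the animals of 2016 as having published libraries, but the methods count published and new libraries differently, so how far the year coincides with the origin of a library is not settled here.

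Complex I, the NADH:ubiquinone oxidoreductase, takes electrons from NADH, passes them to ubiquinone and pumps protons across the inner mitochondrial membrane. The proteins of all 7 genes lie in its membrane arm, while its other subunits are encoded in the nucleus, and heart muscle, which depends on oxidative phosphorylation, holds large amounts of the enzyme. Both strands of the mitochondrial DNA are transcribed as long precursors that are cut into single RNAs. The 6 genes other than MT-ND6 belong to the heavy-strand transcript. MT-ND6 is the protein gene of the light-strand transcript, and in human cells its mRNA has no poly(A) tail. MT-ND4L and MT-ND4 share 1 mRNA, and their reading frames overlap by 7 bases in the RefSeq annotation.

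Libraries held between 43892814 and 132478050 gene counts, with 1 library per animal and a median of 63639042. The 13 protein genes of the mitochondrial genome together took 17.2% to 60.1% of them, with a median of 30.4%. The complex I genes took 4.51% in 4x0025 and 17.3% in 537, with a median of 7.76%. The highest share in the animals of 2016 was 9.86%, in 88A020, and 9 of the 21 animals of 2018 were above it. The 5 highest were 537, 495 at 15.3%, 558 at 15.1%, 529 at 14.6% and Little_R at 14.5%, all of 2018, and their RIN was 7.2, 3.5, 8.4, 5 and 7.8 in that order. High shares thus occurred in animals of high and of low RNA integrity. All 8 cardiomyocyte markers, among them MYH7 and TNNT2, had counts in every library. Their summed level was 7166 to 115053 CPM (counts per 1000000) of the counts outside the 13 mitochondrial protein genes, with a median of 83811. It was lowest in Little_R, at 7166, and next lowest in 537, at 20559, while the summed level of 6 fibroblast markers was highest in 537 and Little_R, at 6430 and 6388. Results are given without both animals wherever this changes a call. Since these are whole tissues, a different share of muscle cells and a different amount of RNA per cell cannot be told apart.

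The 6 heavy-strand genes were read in large numbers in every heart. MT-ND4 had the largest median share of reads, with 12966 CPM (here of all gene counts) in 4x0025, a median of 25018 and 52833 in 529. MT-ND1 had 9855 CPM in 4X0333, a median of 19963 and 42916 in 495, and MT-ND2 had 7569 CPM in 676, a median of 15176 and 44302 in 495. MT-ND5, the longest of the genes, had 1845 CPM in 4x0025, a median of 6986 and 14298 in 88A020. The short genes were lower by read number. MT-ND4L had 2164 CPM in 462, a median of 5675 and 16013 in 537, and MT-ND3 had 2892 CPM in 4x0519, a median of 4878 and 16794 in 537. From the lowest to the highest animal the 6 heavy-strand genes thus spanned 4.07-fold for MT-ND4 to 7.75-fold for MT-ND5. MT-ND6 behaved otherwise, with 0.593 CPM in 4x523, a median of 4.80 and 3028 in MD_And, which is a 5103-fold span.

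**Figure D1:**
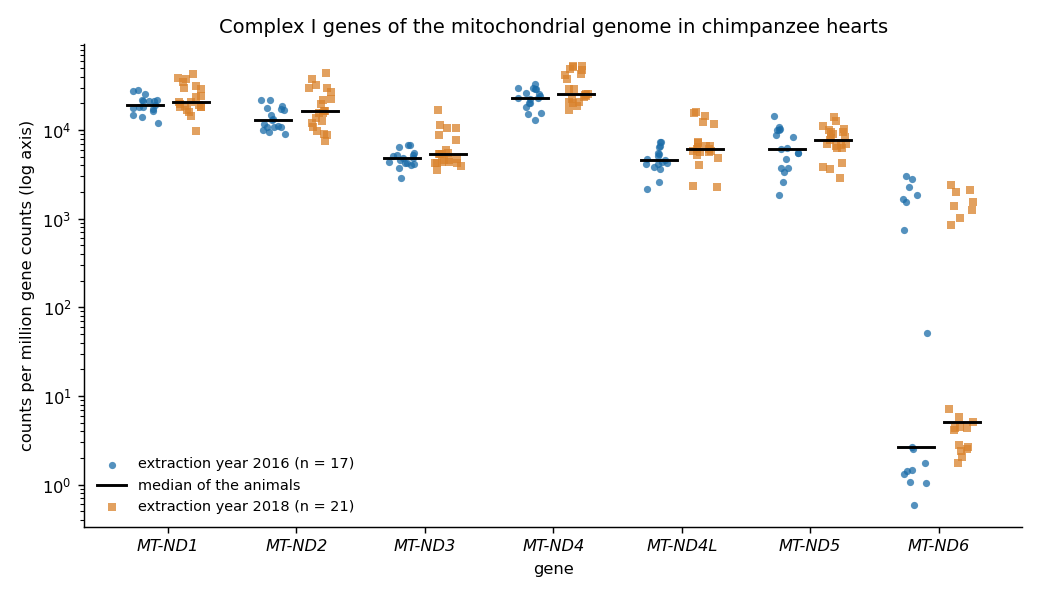
CPM of all gene counts (log axis) of the 7 genes, with 1 point per animal, circles for the 17 animals of extraction year 2016, squares for the 21 of 2018, and a bar at the median of each year. The heavy-strand genes lie between 1845 and 52833 without a wide gap, while MT-ND6 forms an upper cloud at 749 or more and a lower cloud at 52.0 or less in both years.

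Read numbers of genes of different length can only be compared per base. Gene lengths were taken from the RefSeq annotation of another chimpanzee assembly, which serves only for this scaling. Per kilobase, MT-ND1 had the highest median at 20860 CPM, followed by MT-ND4L at 19107, MT-ND4 at 18155, MT-ND2 at 14536, MT-ND3 at 14097, MT-ND5 at 3855 and MT-ND6 at 9.15. The order of the first 5 varied between hearts. MT-ND1 was above MT-ND4L in 23 of 38 animals, by 0.21 ± 0.60 on the log2 scale (mean ± SD, n = 38), and MT-ND4L was above MT-ND4 in 23 of 38 animals, with a mean difference of -0.02 ± 0.47. MT-ND4 was above MT-ND2 in 34 of 38 animals, by 0.37 ± 0.41, an order that most hearts shared. MT-ND2 was above MT-ND3 in 15 of 38 animals, with a mean difference of -0.06 ± 0.56. In single hearts, MT-ND1 was the first of the 7 in 19 animals, MT-ND4L in 13, MT-ND4 in 5 and MT-ND3 in 1. The step down to MT-ND5 was the first that held in every heart, since MT-ND3 was above MT-ND5 in 38 of 38 animals, by 2.08 ± 0.82. Reads across the overlap of MT-ND4L and MT-ND4 belong to both genes, which makes their levels per length less certain. The order is one of counts assigned to each gene, and may differ from that of RNA amounts. Medians of the other mitochondrial protein genes ran from 110334 CPM per kilobase for MT-CO1 to 7.45 for MT-ATP8. The part of nuclear copies of mitochondrial sequence in these levels was not tested for any gene.

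MT-ND6 fell into 2 separate ranges with no animal between them. In 15 animals it lay between 749 CPM (462) and 3028 CPM (MD_And), with a median of 1650 CPM. In the other 23 animals it lay between 0.593 CPM (4x523) and 52.0 CPM (95A014), with a median of 2.55 CPM. The gap between the ranges was 14.4-fold. As raw reads the lowest animal had 45 counts of MT-ND6, for which counting error alone is 14.9%, and the highest, 88A020, had 200023. The upper range held 7 animals of 2016 and 8 of 2018, 9 males and 6 females, and animals of 4 centres, with RIN from 3.2 to 7.6. The lower range held 10 animals of 2016 and 13 of 2018, 7 males and 16 females, with RIN from 2.5 to 8.4. Both ranges thus held animals of both years and both sexes. The SD of the log2 level over animals was 4.74 for MT-ND6, the 4th widest of 15790 genes tested, against 0.69 for MT-ND1 to 0.90 for MT-ND4L among the heavy-strand genes and a median of 0.59 over all genes.

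Other rows of the count table split the animals at the same place. MT-CO3, a subunit of cytochrome c oxidase, had its own gap of 38.5-fold, and MT-ATP6, a subunit of ATP synthase, one of 57.3-fold, and in both the 15 animals above the gap were the 15 of MT-ND6. MT-CO3 was at 4723 to 18654 CPM in those 15 and at 8.89 to 123 CPM in the others, and MT-ATP6 was at 11685 to 37167 and at 10.2 to 204 CPM. MT-CYB, the cytochrome b gene that neighbours MT-ND6 on the mitochondrial genome, had its gap at 12 animals, all of them among the 15. MT-CO3 and MT-ATP6 belong to the heavy strand, so rows of genes of both strands split the animals alike. The strand of the RNA behind these reads is not known. A search of the 15581 other rows with at least 50 counts in an animal, made after the values were seen, ranked them by Pearson's r with MT-ND6. The row with the lowest r, MTRNR2L14, ran the opposite way without overlap. Overlap was examined only for rows at the ends of this ranking. MTRNR2L14, a nuclear gene resembling the humanin sequence within the mitochondrial ribosomal RNA, was at 1.42 to 33.9 CPM in the 15 animals and at 366 to 4679 CPM in the other 23. In raw counts it reached at most 1514 in the former and at least 21440 in the latter.

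**Figure D2:**
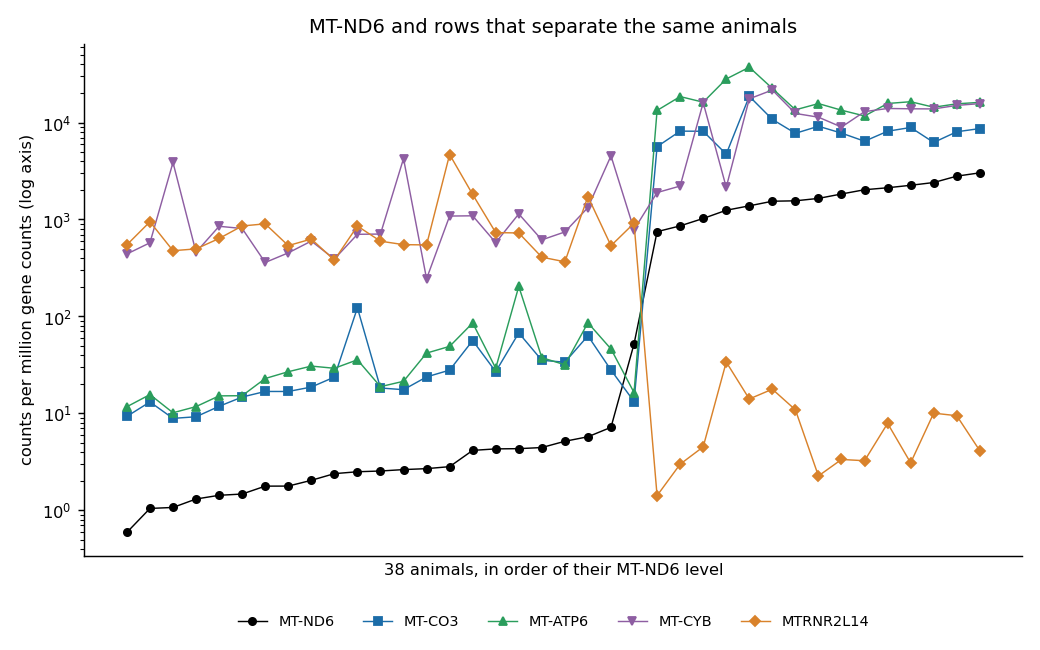
CPM of all gene counts (log axis) of MT-ND6, MT-CO3, MT-ATP6, MT-CYB and the nuclear row MTRNR2L14 in each of the 38 animals, ordered along the horizontal axis by MT-ND6. Between the 23rd and the 24th animal MT-ND6 steps from 52.0 to 749, MT-CO3 and MT-ATP6 step up with it, and MTRNR2L14 steps down to 33.9 or less.

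The counts behind MT-ND6 carry limits of their own. The libraries were made from polyadenylated RNA with a kit that does not mark the strand, so reads of MT-ND6 and reads of the RNA opposite to it cannot be told apart. Mitochondrial sequences have near-identical copies in the nuclear genome, so a level can be split between rows. The part that such copies have in the values of MTRNR2L14, MT-ND6 and the other mitochondrial genes was not tested. The heavy-strand complex I genes had no such split, but some of their ratios shifted with it. The log2 ratio of MT-ND4L to MT-ND4 counts was -3.48 to -2.14 in the 15 animals with high MT-ND6 and -2.31 to -1.62 in the other 23. The log2 ratio of MT-ND5 to MT-ND4 was -2.65 to -1.03 in the former and -3.01 to -1.17 in the latter, so these ranges overlapped. Levels of MT-ND1 overlapped as well, at 14922 to 42916 CPM (median 21668) in the former and 9855 to 38878 CPM (median 18390) in the latter. Ranges of the other heavy-strand genes overlapped too, but their medians shifted. In the former the median was higher for MT-ND2 (18736 against 11080 CPM), MT-ND4 (29280 against 22554) and MT-ND5 (9972 against 6093). It was lower for MT-ND3 (4362 against 5384) and MT-ND4L (5050 against 5715).

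The heavy-strand genes rose and fell together from animal to animal. Over the 38 animals, Pearson's r between their log2 levels, scaled by the trimmed mean of M-values (TMM), was 0.51 to 0.90 over the 15 pairs, with a median of 0.78. It was highest for MT-ND1 with MT-ND4, at 0.90, and lowest for MT-ND3 with MT-ND5, at 0.51. MT-ND4 and MT-ND4L, which share an mRNA, had r = 0.85. These values share the scaling of each library, and are given as a description. Compared with the mean of the 6 heavy-strand genes were 8811 other genes with a symbol and a median of at least 6 CPM. The 13 mitochondrial protein genes were left out. Most like that mean were PAGR1 (r = 0.79), SIGIRR (0.77), TCF15 (0.73), PPT2 (0.73) and ISYNA1 (0.72), each over 38 animals. The median r over the 8811 genes was -0.13, and 5.40% of them were above 0.5.

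The first comparison asked whether the genes differed between the extraction years, with sex in the model. All 7 passed the filter on low counts. MT-ND4L had 1939 to 7443 TMM-scaled CPM with a median of 4655 in the 17 animals of 2016, and 2059 to 22909 with a median of 5916 in the 21 animals of 2018. The ranges overlap over nearly the whole of the earlier one, and the highest value belonged to 537. MT-ND4L was higher in 2018 by 0.94 ± 0.28 on the log2 scale (± SE, 1.92-fold, edgeR quasi-likelihood test, adjusted p = 0.0174). MT-ND4 had 9645 to 34278 TMM-scaled CPM with a median of 21871 in 2016, and 15195 to 82801 with a median of 28237 in 2018, where 4X0339 was highest. It was higher in 2018 by 0.69 ± 0.24 (1.61-fold, edgeR adjusted p = 0.0463). Both members of the shared mRNA were thus called. The animals of 2018 form a single extraction batch, so a difference between years cannot be told apart from one between batches.

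The other 5 genes did not pass the test. MT-ND3 differed by 0.68 ± 0.25 on the log2 scale (edgeR adjusted p = 0.0547), with 2327 to 7931 TMM-scaled CPM in 2016 and 3134 to 24026 in 2018. MT-ND2 had 7129 to 24515 in 2016 and 6852 to 53547 in 2018, with a difference of 0.64 ± 0.27 (edgeR adjusted p = 0.0976). MT-ND1 had 9766 to 30250 in 2016 and 7516 to 58351 in 2018, with a difference of 0.49 ± 0.23 (edgeR adjusted p = 0.139). For each of these genes the years overlapped, and the animals of 2018 reached higher. The smallest difference among the heavy-strand genes was that of MT-ND5, at 0.32 ± 0.27 (edgeR adjusted p = 0.428), with 1373 to 15973 TMM-scaled CPM in 2016 and 2607 to 18135 in 2018. MT-ND6 differed by -0.73 ± 1.18 (edgeR adjusted p = 0.71), and both years held animals of both ranges. Here and below, edgeR estimates for MT-ND6 pool its 2 ranges, so estimate and SE describe neither range. In all, 2 of the 7 genes were called, both higher in 2018, while 16.1% of all 15790 genes tested were called, 11.2% were higher and 4.82% lower in 2018. The median log2 difference was 0.64 over the 7 genes and -0.01 over all genes.

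The calls changed with the animals included. Without 537 and Little_R, MT-ND4L differed by 0.72 ± 0.25 on the log2 scale (edgeR adjusted p = 0.0518) and MT-ND4 by 0.56 ± 0.23 (edgeR adjusted p = 0.0969), and 0 of 7 genes were called, with 3 at an unadjusted p under 0.05, while 13.4% of all genes were called. Among the 21 Yerkes animals MT-ND4L differed by 0.88 ± 0.34 (edgeR adjusted p = 0.179) and MT-ND4 by 0.52 ± 0.33 (edgeR adjusted p = 0.465), and again 0 of 7 were called, with 1 at an unadjusted p under 0.05, while 2.08% of all genes were called. MT-ND6 differed by -5.19 ± 2.62 in the Yerkes animals (edgeR adjusted p = 0.336). This estimate too pools both ranges of MT-ND6. Of the 21 Yerkes animals, 7 lay in the upper range and 14 in the lower. Those in the upper range were of both years. Those of 2016 were 462, 522 and 623, at 749, 1650 and 1558 CPM of all gene counts. Those of 2018 were 295, 389, 495 and 529, at 1025, 2125, 859 and 1383. The latter were all males, while 462 and 522 were females and 623 a male. The part of sex in this estimate was not tested. DESeq2 called 4 of 7 over all 38 animals, MT-ND2, MT-ND3, MT-ND4 and MT-ND4L, and 19.7% of all genes. Markers of other cells moved with extraction year as well. In the edgeR fit over all 38 animals, 4.82% of all genes were lower in 2018 and 11.2% higher. Of 4 macrophage markers 3 were lower in 2018. Their summed level was 29.3 to 296 CPM of the counts outside the 13 mitochondrial protein genes in 2016 and 13.1 to 113 in 2018. Of 4 atrial markers 3 were lower, with sums of 44.2 to 34524 in 2016 and 19.9 to 12763 in 2018. Of 3 adipocyte markers tested 2 were higher, with sums of 106 to 826 and 177 to 1300, and ADIPOQ and LEP were at 0 in at least 1 library. Of 5 smooth muscle markers 1 was higher, with sums of 290 to 2052 and 279 to 1786. None of the 8 cardiomyocyte markers was called, with sums of 38880 to 115053 and 7166 to 103538. Of 6 fibroblast, 5 endothelial, 3 neutrophil and 3 erythrocyte markers tested 0 were called. The part of these cells in the difference between years was not tested.

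**Figure D3:**
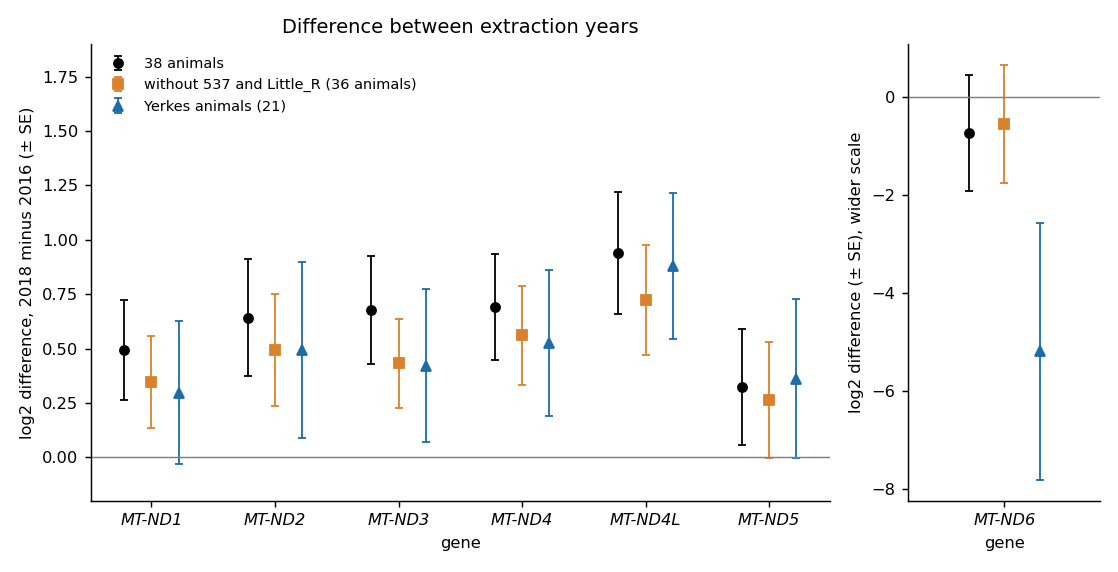
Log2 difference between extraction years (2018 minus 2016, ± SE) of each gene from the edgeR fit over 38 animals (circles), without 537 and Little_R (squares) and in the 21 Yerkes animals (triangles), with MT-ND6 on a wider scale at the right. All heavy-strand estimates lie above 0 and are largest for MT-ND4L, at 0.94, 0.72 and 0.88.

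The next comparison asked whether the levels followed RNA integrity. RIN was 4.2 to 7.6 with a median of 6.2 in 2016 and 2.5 to 8.4 with a median of 5.4 in 2018, and the years' means differed by -0.63 (permutation test, two-sided p = 0.229). With sex and year in the model, edgeR called 0 of the 7 genes and 0 of 16462 genes overall (0% called), while 2276 genes and 0 of the 7 had an unadjusted p under 0.05. DESeq2 called 168 genes (1.06%) and 0 of the 7. The estimates per unit of RIN were small for the heavy-strand genes, from 0.01 ± 0.07 for MT-ND1 to 0.13 ± 0.08 for MT-ND4L on the log2 scale (± SE). MT-ND6 had -0.41 ± 0.44 per unit. Within years, the slope of MT-ND4L was the one heavy-strand estimate above 0 in both, at 0.05 ± 0.15 in 2016 and 0.17 ± 0.11 in 2018.

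Whether the relation to RIN differed between years was tested by an interaction term. The difference in slope, 2018 minus 2016, was 0.12 to 0.19 for the heavy-strand genes and -0.31 ± 0.97 for MT-ND6 on the log2 scale per unit. edgeR called 0 of 16910 genes (0%) and 0 of the 7, while 1083 genes and 0 of the 7 had an unadjusted p under 0.05.

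Ratios of counts within a library do not depend on its size, and 8 of them were compared. MT-ND4L stood at 0.0898 to 0.325 of the MT-ND4 counts, with a median of 0.227, and MT-ND3 at 0.0873 to 0.433 of MT-ND4, with a median of 0.214. MT-ND1 stood at 0.488 to 1.37 of MT-ND4, MT-ND2 at 0.313 to 1.06 and MT-ND5 at 0.124 to 0.488. MT-ND1 to MT-ND2, which are neighbours on the genome, had ratios of 0.832 to 2.37 with a median of 1.42. The ratio of MT-ND6 to MT-ND5 ranged from 0.000228 in 4x523 to 0.296 in MD_And, and that of MT-ND6 to MT-CYB from 0.000277 in 4x0025 to 0.579 in 4X0354. So the MT-ND6 row remained below MT-ND5 in read number in every heart. Per kilobase, MT-ND5 was above MT-ND6 in 37 of 38 animals, while in MD_And MT-ND6 had 5767 CPM and MT-ND5 5649.

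None of the 8 ratios differed between extraction years by a permutation test, and 0 of 8 had an unadjusted p under 0.05. The largest shift in relation to its spread was that of MT-ND1 to MT-ND4, with a mean log2 ratio of -0.23 ± 0.32 (SD, n = 17) in 2016 and -0.42 ± 0.33 (n = 21) in 2018, a difference of -0.19 (permutation test, two-sided p = 0.0774, adjusted over the 8 ratios p = 0.620). MT-ND4L to MT-ND4 differed by 0.12 (permutation p = 0.449, adjusted p = 0.876) although both genes were called above.

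The 6 ratios between heavy-strand genes were also set against RIN. As in the comparison of years, they were pooled over both ranges of MT-ND6, although some shifted with that split. The median log2 ratio of MT-ND4L to MT-ND4 was -2.61 in the upper range and -1.94 in the lower. The part of the split in these relations was not tested. The strongest relation was that of MT-ND4L to MT-ND4, with Pearson's r = 0.30 (permutation p = 0.0671, adjusted over 6 ratios p = 0.403) and Spearman's rho = 0.33 (permutation p = 0.0427, adjusted p = 0.256). It was of like size within 2016 (r = 0.30, n = 17, permutation p = 0.239) and within 2018 (r = 0.34, n = 21, permutation p = 0.127). Without 2 animals far from the median RIN, 4X0339 and 4X0357, r was 0.30 (n = 36, permutation p = 0.0774). The animal 676 had the same RIN as 4X0357, 3.2, and could have been chosen instead. Without 4X0357 alone r was 0.25, and without 676 alone 0.31. This relation did not pass the adjusted test. The other 5 had r from -0.20 for MT-ND1 to MT-ND2 to 0.20 for MT-ND2 to MT-ND4, with adjusted p of 0.403 or more. Since MT-ND6 fell into separate ranges, its ratios were related to RIN within each range. The ratio of MT-ND6 to MT-ND5 had r = -0.06 (rho = -0.06, n = 15, permutation p = 0.847) in the upper and r = -0.02 (rho = -0.02, n = 23, permutation p = 0.936) in the lower range, and without the 2 animals farthest in RIN r was 0.02 in each. The ratio of MT-ND6 to MT-CYB had r = -0.20 (rho = -0.08, n = 15, permutation p = 0.461) and r = 0.02 (rho = 0.07, n = 23, permutation p = 0.926). After adjustment over these 4 relations every p was 0.936 for r. Within years, the ratio of MT-ND6 to MT-ND5 had r = -0.77 in the upper range of 2016 (rho = -0.39, n = 7, exact permutation p = 0.0506) and r = 0.058 in that of 2018 (rho = 0.12, n = 8, exact permutation p = 0.879). In the lower range it had r = -0.17 in 2016 (n = 10, permutation p = 0.720) and r = 0.15 in 2018 (n = 13, permutation p = 0.629). The signs thus differed between years in both ranges, and no value passed 0.05. The ratio of MT-ND6 to MT-CYB had r = 0.10 (n = 7, exact permutation p = 0.838) and -0.41 (n = 8, exact permutation p = 0.305) in the upper range of 2016 and 2018, and r = 0.18 (n = 10, permutation p = 0.636) and 0.0049 (n = 13, permutation p = 0.988) in the lower range.

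**Figure D4:**
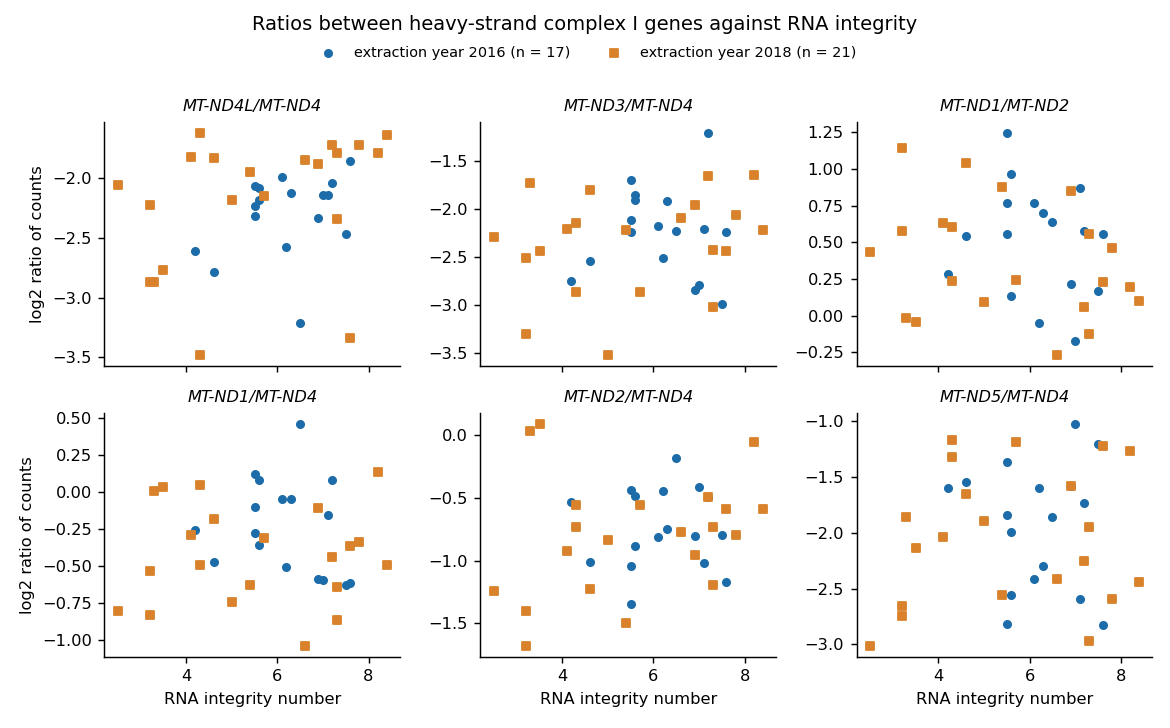
Log2 ratio of counts for 6 pairs of heavy-strand complex I genes (vertical axes) against the RNA integrity number (horizontal axes), with 1 point per animal, circles for 2016 and squares for 2018. MT-ND4L to MT-ND4 shows the strongest relation, r = 0.30, and the years overlap in every panel.

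Sex and age were examined last. For males against females, edgeR called 0 of the 7 genes, with 0 at an unadjusted p under 0.05, while 0.215% of 15790 genes were called, 0.158% higher and 0.057% lower in males. The estimates were 0.27 ± 0.25 for MT-ND3 to 0.48 ± 0.26 for MT-ND5 on the log2 scale, and 1.17 ± 1.19 for MT-ND6. For age, over the 34 animals with a known age, edgeR called 0 of the 7 and 0 of 16309 genes (0%), with 0 of the 7 and 1209 genes at an unadjusted p under 0.05. The estimates per 10 years were 0.02 ± 0.12 for MT-ND4 to 0.12 ± 0.12 for MT-ND3.

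A list of nuclear genes for mitochondrial transcription and RNA processing was counted beside these results. It also held genes of other mitochondrial roles, among them POLG2. Of the 33 genes listed 31 were measured, and 2 were higher in 2018, 0 lower and 29 not called. Their median log2 difference was 0.03, while 16.1% of all genes were called and 11.2% were higher. POLG2, the accessory subunit of the mitochondrial DNA polymerase, had a median of 8.15 TMM-scaled CPM in 2016 (5.44 to 16.7) and 12.8 in 2018 (8.02 to 57.2), a difference of 1.12 ± 0.22 on the log2 scale (edgeR adjusted p = 0.000559). MTERF4, which takes part in building the mitochondrial ribosome, differed by 0.30 ± 0.09 (edgeR adjusted p = 0.0177). MTPAP, the mitochondrial poly(A) polymerase, differed by -0.29 ± 0.13 (edgeR adjusted p = 0.119) and FASTKD1, of a family of mitochondrial RNA-binding proteins, by 0.30 ± 0.14 (edgeR adjusted p = 0.142). LRPPRC and SLIRP, which together stabilize mitochondrial mRNAs, differed by -0.18 ± 0.19 and 0.27 ± 0.17 and were not called. The transcription factor TFAM, at -0.04 ± 0.11, the RNA polymerase POLRMT, at 0.05 ± 0.08, and GRSF1, a protein of mitochondrial RNA granules, at -0.06 ± 0.13, were not called either.

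For RIN, 0 of the 31 were called. The smallest p values belonged to HSD17B10, a subunit of mitochondrial RNase P, at -0.12 ± 0.04 per unit of RIN on the log2 scale (edgeR adjusted p = 0.161), SUPV3L1, a mitochondrial RNA helicase, at -0.09 ± 0.03 (edgeR adjusted p = 0.189), TFB1M, a ribosomal RNA methyltransferase, at -0.11 ± 0.04 (edgeR adjusted p = 0.248), and SLIRP, at -0.12 ± 0.05 (edgeR adjusted p = 0.297). POLRMT had -0.05 ± 0.03, GRSF1 -0.04 ± 0.04, TFAM 0.03 ± 0.04 and LRPPRC 0.01 ± 0.07. Of 37 nuclear genes for complex I subunits 0 were called for year, against 16.1% of all genes, and 0 for RIN, against 0%, with median log2 differences of -0.02 between years and -0.11 per unit of RIN. Of the other 6 mitochondrial protein genes 0 were called for either. Among these, MT-CO1 differed between years by 0.66 ± 0.24 (edgeR adjusted p = 0.0568) and MT-CO2 by 0.68 ± 0.25 (edgeR adjusted p = 0.0596), close to the values of MT-ND2, MT-ND3 and MT-ND4.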

How the data were processed

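RNA-seq of 38 chimpanzee hearts was analysed. The authors aligned single-end reads with STAR to Pan_tro_3.0 and deposited a raw count per Ensembl gene from STAR's gene counting, without normalization. Which strand column was taken is not given in the sources used here. The authors also deposited a raw count per gene on orthologous exons, whose totals served as an alternative library size, and a score per gene made from log CPM by standardizing and quantile normalizing, which holds none of the 7 genes. Year, RIN, sex, age and centre came from the study's sample table, and 52 columns of other samples were not used.

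Library totals were 43892814 to 132478050 gene counts, which makes counting error small except for MT-ND6 in its lower range. Symbols covered 18040 of 31373 rows. edgeR 4.0.16 (TMM, filterByExpr, quasi-likelihood test) in R 4.3.3 was fitted to all genes with Benjamini-Hochberg adjustment at 0.05, and DESeq2 1.42.0 was an alternative. Ratios used 100000 permutations in numpy 2.4.6. In simulated data edgeR recovered 147 of 200 genes changed by 1 log2 unit between years, with 2 false calls, and 174 of 200 changed by 0.5 per unit of RIN, with 10 false calls. P-values weigh each difference against the spread between these animals, which were treated as independent. The later extraction year was a single batch, so the spread between batches of that year was not measured. The models held no term for batch within a year or for kinship, although some animals were close relatives.

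The genes and lists were chosen with earlier results of these data known. The genes named were the 7 members, the other mitochondrial protein genes, of the mitochondrial RNA list the 4 with the smallest p for year and for RIN and 5 central ones, and the 5 nuclear genes most like the heavy-strand mean. MTRNR2L14 was added after its values were seen. Alternatives covered library sizes, the filter, the tool, covariates and sets of animals. No file here held the sequences of these genes, so none is printed.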

Additional observations from a re-analysis of the deposited data

How the results depend on the processing

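Of the 7 genes, 2 were called between extraction years in the main setting. With all gene counts as library size, or with every gene that had a count, 1 was called. With counts outside the 13 mitochondrial protein genes as library size, or with RIN added, 3 were called. Orthologous exon totals or DESeq2 gave 4. Without 537 and Little_R, or among Yerkes animals, 0 were called. MT-ND4L was called in each of the 38 fits that left out 1 animal (edgeR adjusted p = 0.00726 to 0.0318), while MT-ND4 was not called without any 1 of 19 animals (317, 338, 456, 462, 495, 4x0025, 4X0339, 4X0357, 4x0430, 4x0519, 4x523, 529, 537, 549, 558, 570, 95A014, Little_R and MD_And), with an adjusted p of up to 0.0719, and MT-ND3 was called in 15 of 38, with an adjusted p down to 0.0355. Leaving out 1 animal gave 1 to 3 genes called of the 7 and 13.5% to 18.6% of all genes, against 16.1% over all 38 animals and 2.08% among Yerkes animals, of which 308 were higher and 25 lower. Scaling by all gene counts turned the split over all genes from 1775 higher and 761 lower to 878 higher and 1509 lower, with the median of all genes at -0.20 on the log2 scale. On that scale the median of the 7 genes was 0.39, and the 6 heavy-strand genes remained above 0 under all 8 settings.

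For RIN, 0 of the 7 were called in any setting. Over all genes, 4 were called with counts outside the 13 mitochondrial protein genes as library size and 2 with orthologous exon totals. With every gene that had a count 2 were called, in the earlier year alone 2, and with DESeq2 168. When 1 animal was left out 0 to 9 were called (above 0 without 495 or 4X0550). Slopes near 0 changed sign. In the earlier year alone they were -0.13 for MT-ND1, -0.022 for MT-ND2, -0.074 for MT-ND3, -0.069 for MT-ND4 and -0.051 for MT-ND5. Without 537 and Little_R they were -0.072 for MT-ND1, -0.0091 for MT-ND2, -0.049 for MT-ND3 and -0.061 for MT-ND4. With year left out they were -0.0016 for MT-ND1 and -0.010 for MT-ND4, and with all gene counts as library size -0.0058 for MT-ND1. Leaving out 1 animal gave -0.032 to 0.050 for MT-ND1 and -0.032 to 0.073 for MT-ND4. The test of slopes by year called 0 genes without 537 and Little_R too.

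No ratio passed the adjusted test for year or RIN in any setting, and leaving out 1 animal left 0 in both. The year difference of MT-ND6 to MT-ND5 was 0.15 without 537 and Little_R and -0.51 to 0.14 when 1 animal was left out, and that of MT-ND6 to MT-CYB was -0.064 to 0.59. With RIN, r in the earlier year alone was -0.022 for MT-ND3 to MT-ND4, -0.20 for MT-ND1 to MT-ND4 and -0.046 for MT-ND5 to MT-ND4, and r of MT-ND1 to MT-ND4 was -0.0010 in the later year alone and -0.082 to 0.056 when 1 animal was left out. As CPM of the counts outside the 13 mitochondrial protein genes, medians moved to 29425 for MT-ND1, 36242 for MT-ND4 and 11397 for MT-ND5. Each moved by more than the SD over animals. That denominator leaves out the mitochondrial protein genes, so it is smaller and each of these CPM values is higher by calculation. The cause of the other changes was not tested. The normalized matrix could not be used as an alternative because it holds none of the 7 genes. No paired analysis was possible because the samples form 1 group.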

Other observations

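Within the lower range of MT-ND6, the animals 95A014 and 476 stood highest, with 2708 and 952 counts of MT-ND6 beside 47610 and 71114 counts of MTRNR2L14. Within the upper range, the 3 animals with the fewest counts of MT-ND6 were 495, 462 and 4X0354, with 41034, 50630 and 55666, beside 143, 96 and 1514 counts of MTRNR2L14. MT-ATP8, the short gene beside MT-ATP6, did not follow the other rows, since it was at 1483 CPM or more in 2 of the 15 animals, 529 and 4x0519, and at most 20.2 CPM in the other 36.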
